A study of Homo sapiens with 8 samples.

Results

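The enzymes and binding proteins that write, erase and read DNA methylation were followed across 8 expression arrays of DLD1, an established human colorectal cancer cell line with many methylated CpG islands. The set comprised 9 genes, UHRF1, UHRF2, DNMT1, DNMT3A, DNMT3B, TET1, TET2, TET3 and MBD2, and was found by taking every array probe that carried one of these symbols, which gave 21 of 50599 probes. All cells were DLD1 with no genetic modification stated, and the 4 groups of 2 arrays differed in siRNA and agent. The siCONT groups received a negative control siRNA, and in the UHRF1-depleted groups 1 array carried siUHRF1-1 and the other siUHRF1-2, which are different siRNAs to the same gene. Transfected cells were kept for 48 h and then given trichostatin A (TSA, 300 nM), an inhibitor of histone deacetylases, or its solvent ethanol (mock) for another 24 h, so the groups were siCONT mock, siUHRF1 mock, siCONT TSA and siUHRF1 TSA. The depletion was transient, all RNA came from 1 cell line, and only 2 arrays a group limit how precise each value is.

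DNA methylation is copied at replication when UHRF1 binds hemimethylated CpG sites and brings in the maintenance methyltransferase DNMT1. DNMT3A and DNMT3B place new methyl groups, the TET dioxygenases oxidize 5-methylcytosine as a step in its removal, and MBD2 binds methylated CpG and is part of the NuRD repressor complex. UHRF2 is a paralog of UHRF1. UHRF1 and DNMT1 are known to be abundant in dividing cells, and many colorectal tumours carry dense methylation at promoter CpG islands.

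A level here is the log2 of the processed intensity of a probe relative to the 75th percentile of its array, and the levels of different probes were not compared with each other. Only probes that stood well above background on each array of 1 or more of the compared groups were tested, and a probe was called if the limma fit gave a Benjamini-Hochberg adjusted p under 0.05 with a change of at least 2-fold. On all 8 arrays 13 of the 21 probes cleared the background well, while 3 did so on some arrays and 5 on none. The 15 tested probes covered 8 of the 9 genes. Both probes of TET3 and 1 probe of DNMT3B never rose well above background. The arrays were all on 1 slide, with the mock arrays in 1 row and the TSA arrays in the other, so TSA and slide row cannot be told apart. The siCONT arrays of an agent differed by about the noise between spots (1.07 times that noise under mock and 1.18 times under TSA, against 13.1 and 10.6 times between the siUHRF1 arrays), so they were counted as 1 sample and their means are given without an SD. The tests used both arrays, and where counting them as 1 sample ends a call that adjusted p is given too. Colon epithelium was as labelled: 10 of 10 of its markers were well above background on all arrays. None of 6 fibroblast and 4 endothelial markers and 2 of 6 leukocyte markers (CD14 and CD68) were above background on all arrays, and COL1A2, COL3A1, PTPRC, CD3E, ITGAM, PECAM1 and KDR were above it on none. The log2 of the summed signal ran from -2.20 to 0.43 for the fibroblast list, from -0.41 to 1.41 for the leukocyte list and from -2.55 to 0.79 for the endothelial list, each highest on a siUHRF1 TSA array. The part of these lists in the results was not tested.

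The first question was how far the siRNAs lowered their target and whether TSA touched it too. UHRF1 fell in the depleted cells with both siRNAs, and it was lower still where depletion and TSA were combined. At its brighter probe, A_23_P208880 (chr19:4962065-4962124 of hg19, plus strand), the levels were 1.98 and 2.01 in siCONT mock, 0.34 with siUHRF1-1 and -0.02 with siUHRF1-2 under mock, 1.04 and 1.01 in siCONT TSA, and -1.55 and -2.14 with siUHRF1-1 and siUHRF1-2 under TSA. No group overlapped another, and the order from high to low was siCONT mock, siCONT TSA, siUHRF1 mock and siUHRF1 TSA.

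Under mock the depleted mean of 0.16 ± 0.26 (SD, n = 2 siRNAs) compared with 1.99 in siCONT, a log2 change of -1.83 ± 0.22 (SE) that left 28.1% of the siCONT signal (31.9% with siUHRF1-1 and 24.8% with siUHRF1-2). The limma adjusted p was 0.0120, and 0.252 with each siCONT pair taken as 1 sample. Without siCONT mock replicate 1 or 2 the adjusted p rose to 0.0835 and 0.0771. Under TSA the change on depletion was -2.87 ± 0.22, leaving 13.6% of the signal (limma adjusted p = 0.00234, and 0.0536 with each siCONT pair as 1 sample). Depletion plus TSA against siCONT mock left 6.98%, a change of -3.84 ± 0.22 with a limma adjusted p of 0.000154 that kept its call with each siCONT pair as 1 sample. With normexp background correction the change in the combination was -2.60, under TSA -1.79 and under mock -1.44, all still called.

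TSA without depletion left 51.2% of the UHRF1 signal, a change of -0.97 ± 0.22 (limma adjusted p = 0.0175, and 0.279 with each siCONT pair as 1 sample), which stayed just short of 2-fold. In depleted cells the change with TSA was -2.01 ± 0.22 and was called (limma adjusted p = 0.00133). The difference between these 2 responses, the interaction of depletion and TSA, was -1.04 ± 0.31 and missed the threshold (limma adjusted p = 0.0990). The 95% interval of that difference ran from -1.80 to -0.28.

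The dimmer UHRF1 probe, A_33_P3379454 (chr19:4960895-4960954), gave the same order. Its levels were -0.49 on both siCONT mock arrays, -2.10 and -2.30 in siUHRF1 mock, -1.52 and -1.72 in siCONT TSA, and -3.37 and -4.55 in siUHRF1 TSA, where neither array had it well above background. Against that group only bounds can be given, taken against the lowest signal well above background: the siCONT mock level was at least 8.02-fold higher, the siCONT TSA level at least 3.67-fold and the siUHRF1 mock level at least 2.46-fold. All 5 comparisons of groups were called at this probe, and 3 calls ended with each siCONT pair as 1 sample (adjusted p of 0.440 for depletion under mock, 0.357 for TSA in siCONT and 0.163 for depletion under TSA). With normexp background correction its change in the combination was -1.20, and the other 4 fell short of 2-fold (-0.87 to -0.33). The calls for depletion under mock (limma adjusted p = 0.0431) and TSA in siCONT (0.0493) stood nearest the threshold. The first was lost on leaving out any 1 array of siCONT mock, siUHRF1 mock or siCONT TSA (adjusted p 0.0629 to 0.201). The second was lost on leaving out any 1 array of those groups as well (0.0702 to 0.194). Depletion under TSA was lost without siCONT TSA replicate 1 or 2 (0.0825 and 0.0701), and TSA in depleted cells without siUHRF1 mock replicate 1 (0.0531).

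DNMT1, the maintenance methyltransferase that UHRF1 recruits, was not called on depletion alone but fell with TSA in depleted cells. Its 1 probe, A_33_P3329187 (chr19:10244023-10244082, minus strand), read 2.72 and 2.76 in siCONT mock, 2.74 and 2.59 in siUHRF1 mock, 2.04 and 1.99 in siCONT TSA, and 1.51 and 1.41 in siUHRF1 TSA. The mock groups overlapped, both TSA groups lay below them, and the depleted TSA arrays lay below the siCONT TSA arrays. Under mock the difference on depletion was -0.08 ± 0.12 with a 95% interval from -0.36 to 0.21 (limma adjusted p = 0.678). A fall of 2-fold lay outside that interval, which counts both siCONT arrays.

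TSA in siCONT cells left 60.4% of the DNMT1 signal, a change of -0.73 ± 0.12 (limma adjusted p = 0.00549, and 0.264 with each siCONT pair as 1 sample), short of 2-fold. TSA in depleted cells left 43.3% (a change of -1.21 ± 0.12, limma adjusted p = 0.000872), and the combination left 41.1% of siCONT mock (a change of -1.28 ± 0.12, limma adjusted p = 0.000552). Both calls held with each siCONT pair as 1 sample, at adjusted p of 0.0215 and 0.0345. Depletion under TSA gave -0.55 ± 0.12 (limma adjusted p = 0.0276, and 0.432 with each siCONT pair as 1 sample). The interaction was -0.48 ± 0.17 and missed the threshold (limma adjusted p = 0.130).

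**Figure D1:**
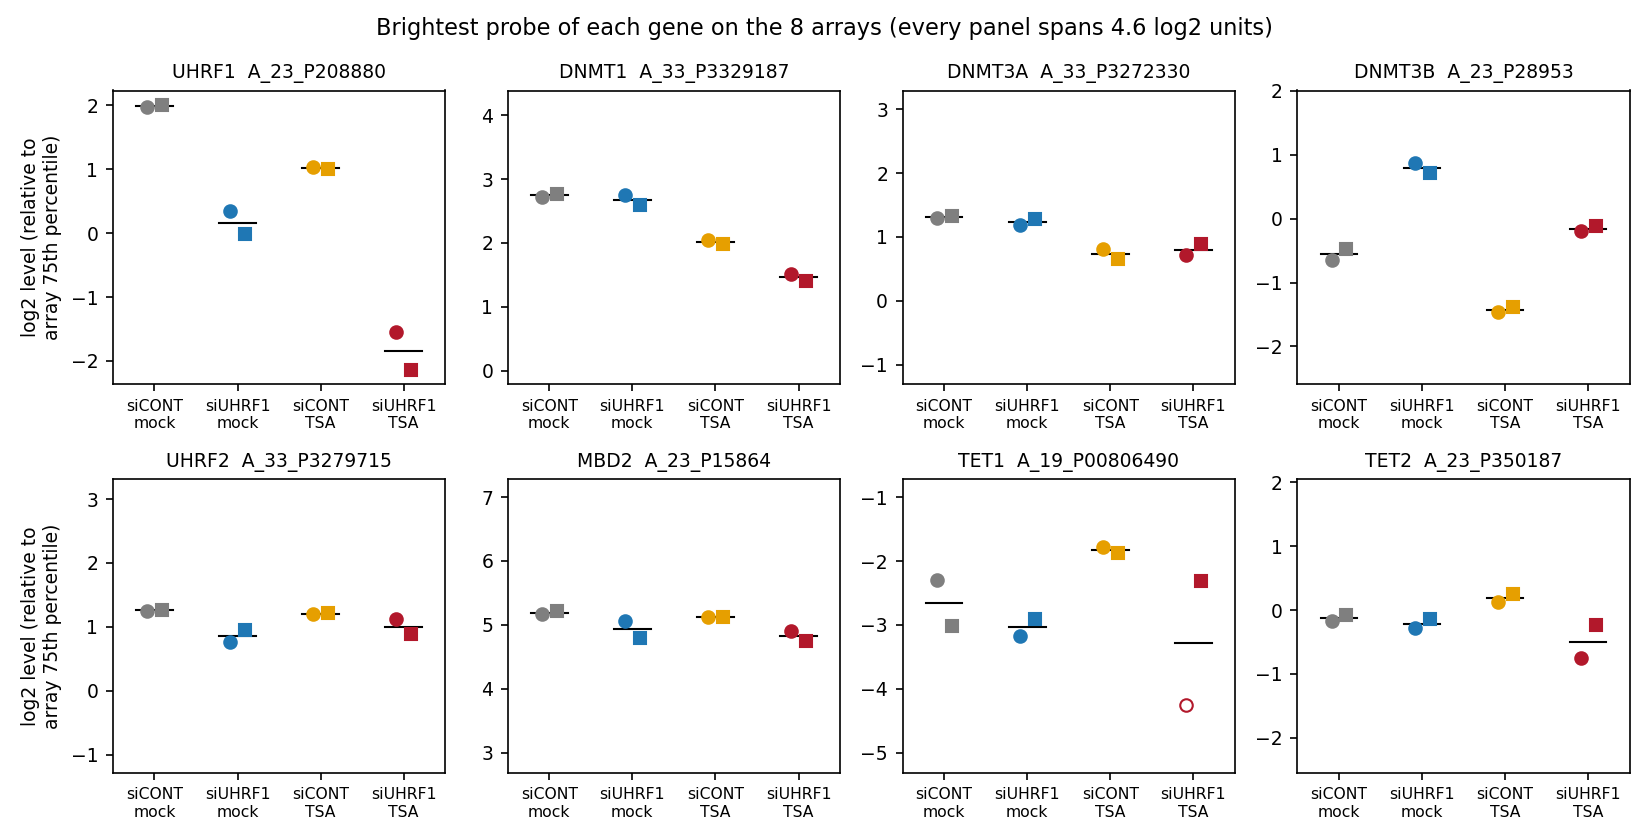
Log2 level of the brightest probe of 8 genes on each of the 8 arrays, with the array's 75th percentile as 0. Circles are replicate 1 or siUHRF1-1, squares replicate 2 or siUHRF1-2, open symbols are not well above background, and black lines are group means. UHRF1 is lowest in siUHRF1 TSA (-1.55 and -2.14), DNMT1 is lower in the TSA groups (1.41 to 2.04) than in the mock groups (2.59 to 2.76), and DNMT3B is higher in the siUHRF1 group than in the siCONT group of either agent.

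DNMT3B, a de novo methyltransferase, moved the other way from UHRF1 on depletion: it rose on depletion under mock and under TSA. Its readable probe, A_23_P28953 (chr20:31397064-31397123, plus strand), gave -0.64 and -0.47 in siCONT mock, 0.88 and 0.72 in siUHRF1 mock, -1.46 and -1.39 in siCONT TSA, and -0.20 and -0.11 in siUHRF1 TSA. The 4 groups did not overlap, with siUHRF1 mock highest and siCONT TSA lowest. Depletion raised it 2.56-fold under mock (1.36 ± 0.13 on the log2 scale, limma adjusted p = 0.00765) and 2.42-fold under TSA (1.27 ± 0.13, limma adjusted p = 0.00457). By siRNA the changes were 1.44 and 1.28 under mock and 1.23 and 1.32 under TSA for siUHRF1-1 and siUHRF1-2.

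With each siCONT pair taken as 1 sample neither DNMT3B call held, at adjusted p of 0.242 and 0.145. With normexp background correction both changes fell short of 2-fold (0.98 and 0.76), and with median scaling the change under TSA did (0.92, against 1.35 under mock). Under mock it was also lost without siCONT mock replicate 1 (adjusted p 0.0589), at a change of 1.27. TSA changed the level in siCONT by -0.87 ± 0.13 (limma adjusted p = 0.00399) and in depleted cells by -0.95 ± 0.13 (limma adjusted p = 0.00246), in both cases short of 2-fold. With each siCONT pair as 1 sample the limma adjusted p were 0.207 and 0.0378. The interaction was -0.09 ± 0.18, with a 95% interval from -0.52 to 0.35 (limma adjusted p = 0.779), and with median scaling it was -0.43. In the combination the level was 0.40 ± 0.13 above siCONT mock (limma adjusted p = 0.0405, and 0.343 with each siCONT pair as 1 sample). That value became 0.003 when arrays were scaled on the median of all probes and 0.65 when they were scaled on the detected probes. The second probe of the gene, A_33_P3359508, stayed between -6.04 and -5.63, too dim to read on any array.

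To set UHRF1 and DNMT1, which were both lowest in siUHRF1 TSA, beside DNMT3B, which rose on depletion, the promoter letters are shown: the 250 bases before the first listed transcription start of each gene, from RefSeq on GRCh38.p14. Capitals mark matches, on either strand, to the E2F forms TTTCCCGC, TTTGGCGC, TTTCGCGC and TTTGCCGC, to the CHR element TTTGAA and to CCAAT, which do not overlap here. The windows are chr19:4909251-4909500 (plus strand), chr19:10194954-10195203 (minus) and chr20:32779602-32779851 (plus).
UHRF1: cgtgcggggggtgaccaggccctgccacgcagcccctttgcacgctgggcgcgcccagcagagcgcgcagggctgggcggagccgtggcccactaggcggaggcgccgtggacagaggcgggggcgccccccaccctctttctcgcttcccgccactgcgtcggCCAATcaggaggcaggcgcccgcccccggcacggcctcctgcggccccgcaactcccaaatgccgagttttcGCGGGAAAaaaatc
DNMT1: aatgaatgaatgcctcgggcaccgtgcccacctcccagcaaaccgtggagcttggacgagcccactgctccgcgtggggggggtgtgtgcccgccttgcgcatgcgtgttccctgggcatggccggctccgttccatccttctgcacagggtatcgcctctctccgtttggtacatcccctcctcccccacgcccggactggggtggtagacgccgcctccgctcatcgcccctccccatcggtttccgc
DNMT3B: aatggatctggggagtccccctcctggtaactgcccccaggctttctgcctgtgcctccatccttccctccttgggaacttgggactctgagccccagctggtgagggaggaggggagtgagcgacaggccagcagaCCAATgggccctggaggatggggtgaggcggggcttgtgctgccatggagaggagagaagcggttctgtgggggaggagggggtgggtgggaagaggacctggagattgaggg
The UHRF1 window held 1 E2F form, on the minus strand and beginning 14 bases before the start, and 1 CCAAT beginning 86 bases before it. The second of the 3 listed UHRF1 starts also held 1 E2F form and had 2 CCAAT matches. None of the listed starts of the other 8 genes held an E2F form, and no match says only that these letters are not in the window. Of all 35116 promoter windows of this length, 2.79% held an E2F form, 13.3% TTTGAA and 32.0% CCAAT. The DNMT1 window held none of them and the DNMT3B window 1 CCAAT. CpG dinucleotides numbered 28 in the UHRF1 window, 21 in that of DNMT1 and 3 in that of DNMT3B, against a median of 11 over all windows. For DNMT3B the reference listed only 1 start, so its letters and CpG count do not describe any other promoter of the gene. Which start the cells used was not tested.

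DNMT3A, the other de novo methyltransferase, had 3 probes, designed to 2 transcript variants. A_33_P3272330 (chr2:25457095-25457154, minus strand) and A_23_P154500 (chr2:25456415-25456474) were designed to transcript variant 1, and A_23_P420373 (chr2:25504394-25504453) to transcript variant 4. The stretches printed are the first 30 of the 60 bases of 1 probe for each variant, all in lower case since none of the marked letters occurs in them.
DNMT3A variant 1, A_33_P3272330: tgtgtaagggacatgggggcaaactgaggt
DNMT3A variant 4, A_23_P420373: caaaaagtcttccttccaagcgtgtatgat
At A_33_P3272330 the levels were 1.30 and 1.33 in siCONT mock, 1.18 and 1.29 in siUHRF1 mock, 0.82 and 0.66 in siCONT TSA, and 0.72 and 0.88 in siUHRF1 TSA. The TSA arrays lay below the mock arrays whichever siRNA was used. TSA changed it by -0.58 ± 0.13 in siCONT (limma adjusted p = 0.0150) and by -0.43 ± 0.13 in depleted cells (limma adjusted p = 0.0370), both under 2-fold. With each siCONT pair as 1 sample the limma adjusted p were 0.358 and 0.221. The other variant 1 probe, A_23_P154500, gave -0.57 and -0.41. Depletion moved these probes by -0.08 and 0.03 under mock and by 0.06 and 0.19 under TSA, and none of those values passed the adjusted threshold. With both siCONT arrays counted, all their 95% intervals excluded 2-fold.

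The variant 4 probe of DNMT3A was called in 1 comparison, depletion under TSA. It read -1.99 and -1.71 in siCONT mock, -1.44 and -1.87 in siUHRF1 mock, -2.73 and -2.59 in siCONT TSA, and -1.77 and -1.34 in siUHRF1 TSA. The siCONT TSA arrays were the lowest, and the depleted TSA arrays overlapped both mock groups. Depletion under TSA raised it 2.15-fold (1.10 ± 0.22, limma adjusted p = 0.0235). That call was lost with each siCONT pair as 1 sample (adjusted p = 0.270), under quantile normalization (0.94, adjusted p = 0.0515), with median scaling (0.75, adjusted p = 0.0951), and on leaving out siCONT mock replicate 1 or 2, siCONT TSA replicate 1 or 2, or siUHRF1 TSA replicate 2 (adjusted p 0.0510 to 0.143). Its interaction of 0.91 ± 0.31 missed the threshold (limma adjusted p = 0.126), and no test compared the variants with each other.

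TET2, one of the enzymes that oxidize 5-methylcytosine, had 1 probe with calls and 3 without, and no test compared the probes. Of these 4 probes, 3 were designed to transcript variant 1 and 1, A_33_P3266719 (chr4:106163842-106163901 of hg19, plus strand), to transcript variant 2, a shorter form. A stretch of 30 bases of that probe (bases 11 to 40) is set beside the first 30 of a variant 1 probe, A_33_P3238685 (chr4:106193920-106193979), to show that they read different sequence. Capitals mark AATAAA, the letters of the polyadenylation signal, which occur in 3 of the 21 member probes and in 7.88% of all probes on the array.
TET2 variant 2, A_33_P3266719: tgtttaaaaaatAATAAAccgttcatttct
TET2 variant 1, A_33_P3238685: tcaagacttgccgacaaaggaaactagaag
The other member probes with these letters were those of DNMT1 and A_19_P00806490 of TET1, described further on.

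The variant 2 probe of TET2 was lower in every treated group. It read -0.83 and -0.77 in siCONT mock, -2.96 and -2.22 in siUHRF1 mock, -2.31 and -2.65 in siCONT TSA, and -2.34 and -2.24 in siUHRF1 TSA. The siCONT mock arrays stood clear of all 6 others, and the 3 treated groups overlapped each other. Depletion under mock left 28.9% of the signal (a change of -1.79 ± 0.25, limma adjusted p = 0.0188), TSA in siCONT left 31.1% (-1.68 ± 0.25, limma adjusted p = 0.00447), and the combination left 35.6% (-1.49 ± 0.25, limma adjusted p = 0.00477). Depletion under TSA (0.19) and TSA in depleted cells (0.30) were not called. The interaction was therefore positive, at 1.99 ± 0.36 (limma adjusted p = 0.0368), and it was the only interaction called among the member probes.

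Every one of these TET2 calls rests on the 2 siCONT mock arrays, and with each siCONT pair taken as 1 sample none held (adjusted p of 0.284, 0.127, 0.0576 and 0.435 for depletion under mock, TSA in siCONT, the combination and the interaction). Leaving out siCONT mock replicate 1 or 2 raised the adjusted p for depletion under mock to 0.108 and 0.104, and leaving out siCONT TSA replicate 1 or 2 to 0.0510 and 0.0521. The interaction lost its call without any 1 of the siCONT mock, siCONT TSA or siUHRF1 TSA arrays (adjusted p 0.0639 to 0.141). With normexp background correction the changes shrank to -0.90, -0.87 and -0.76 for depletion under mock, TSA in siCONT and the combination.

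None of the variant 1 probes of TET2 was called in any comparison. A_33_P3238685 ran from -0.56 to 0.21 over the 8 arrays, A_23_P350187 (chr4:106200570-106200629) from -0.75 to 0.26, and A_33_P3238690 (chr4:106199618-106199677) from -2.82 to -1.93. In siCONT TSA the probes disagreed: A_33_P3238690 was 0.68 ± 0.17 above mock (limma adjusted p = 0.0248, and 0.322 with each siCONT pair as 1 sample), A_23_P350187 was at 0.31 ± 0.19 and A_33_P3238685 at -0.48 ± 0.20, neither past the threshold. The TET2 probes therefore gave no single direction for the gene under TSA.

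**Figure D2:**
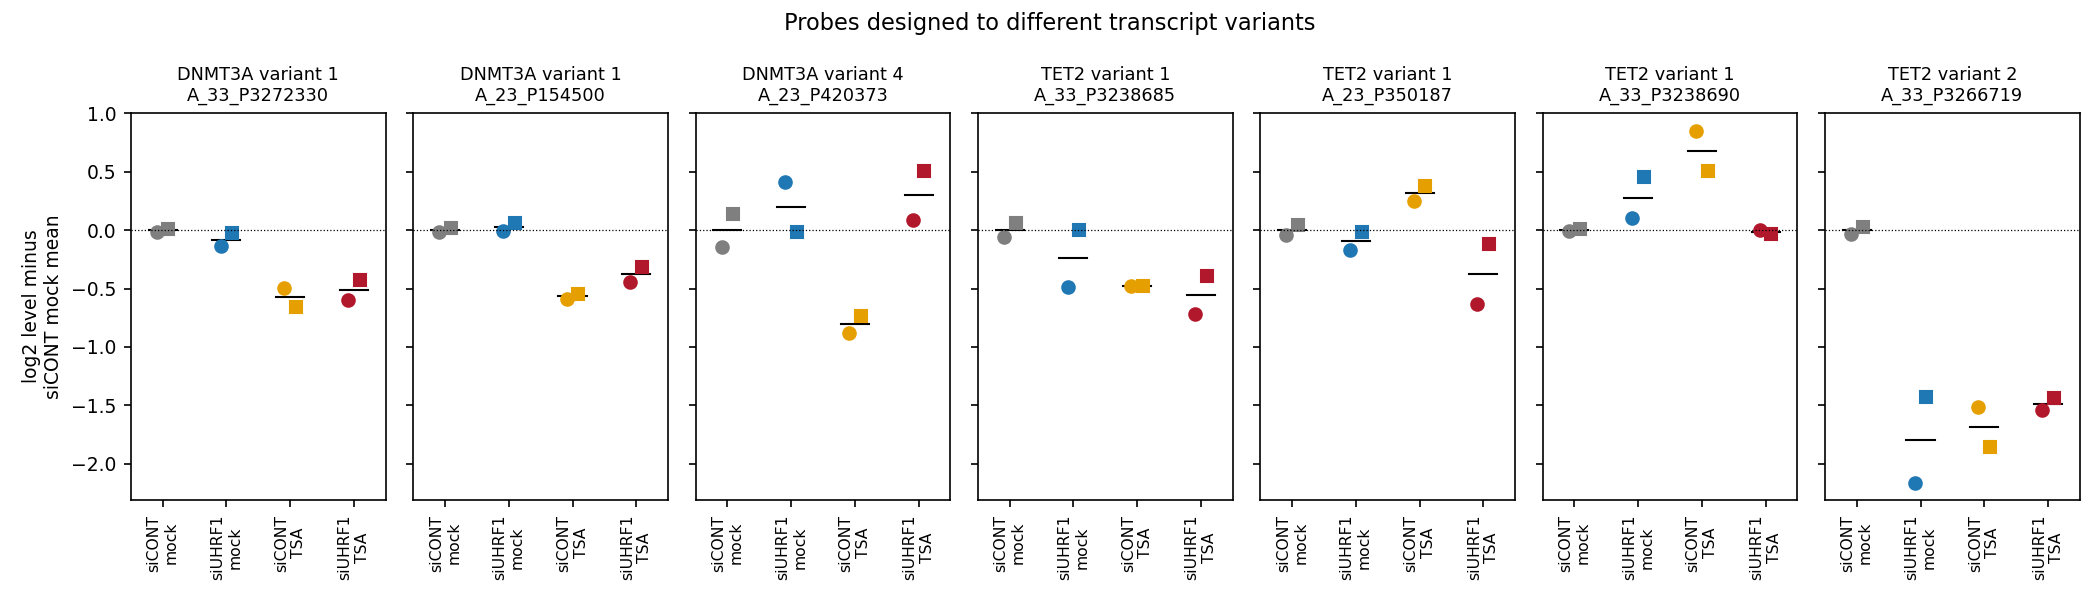
Log2 level of 3 DNMT3A and 4 TET2 probes on each array minus the siCONT mock mean of that probe, by group, with the transcript variant each probe was designed to. Circles are replicate 1 or siUHRF1-1, squares replicate 2 or siUHRF1-2, and black lines group means. The TET2 variant 2 probe is lower in all 3 treated groups, with group means at -1.79 to -1.49, while the TET2 variant 1 probes stay within 1 log2 unit of siCONT mock.

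TET1 and TET3, which act on the same base as TET2, were near or below the limit of the arrays. The 1 readable TET1 probe, A_19_P00806490 (chr10:70454164-70454223), read -2.29 and -3.01 in siCONT mock, -3.17 and -2.90 in siUHRF1 mock, -1.78 and -1.87 in siCONT TSA, and -4.25 and -2.31 in siUHRF1 TSA, with the -4.25 of siUHRF1-1 not well above background. The siUHRF1 arrays disagreed under TSA by more than any group difference, and no comparison passed the threshold. Its 95% interval for depletion under TSA ran from -2.92 to 0.02 (limma adjusted p = 0.147), so changes of over 2-fold could not be told from none. The other TET1 probes, A_33_P3295550 and A_23_P322756, and the TET3 probes, A_33_P3235177 and A_33_P3331335, never stood well above background, and no change is given for them.

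UHRF2, the paralog of UHRF1, was not called in either direction while UHRF1 fell. A_33_P3279715 (chr9:6421082-6421141) read 1.25 and 1.27 in siCONT mock, 0.76 and 0.95 in siUHRF1 mock, 1.20 and 1.22 in siCONT TSA, and 1.12 and 0.88 in siUHRF1 TSA. The siUHRF1 arrays lay below the siCONT arrays of the same agent, but the change under mock (-0.40 ± 0.13) missed the threshold (limma adjusted p = 0.111). With both siCONT arrays counted, the 95% interval, from -0.73 to -0.07, held no 2-fold change. The second probe, A_24_P303815 (chr9:6506080-6506139), differed between the siRNAs under mock (-0.13 with siUHRF1-1 and -1.31 with siUHRF1-2) and was at -1.92 and -1.58 under TSA against -0.63 and -0.32 in siCONT TSA. That gap of -1.28 ± 0.38 also missed the threshold (limma adjusted p = 0.0673), and the probes were not of 1 direction under mock (0.23 at the second).

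MBD2, the methyl-CpG reader of NuRD, varied little and was not called. Its readable probe, A_23_P15864 (chr18:51681393-51681452), read 5.16 and 5.21 in siCONT mock, 5.06 and 4.79 in siUHRF1 mock, 5.13 on both siCONT TSA arrays, and 4.90 and 4.76 in siUHRF1 TSA. The siUHRF1 arrays were the lower ones, with the siUHRF1-2 array below the siUHRF1-1 array in both agents. In the combination the difference was -0.36 ± 0.14 with a 95% interval from -0.69 to -0.03 (limma adjusted p = 0.0712). That interval, with both siCONT arrays counted, excludes 2-fold. A transcript variant 2 probe, A_24_P119201 (chr18:51729113-51729172), was well above background on 3 of 8 arrays and in no group on both, so it was not tested.

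Counted by probe, the share of members called stood above that of all probes in both comparisons of depletion within an agent. In each of these UHRF1, which the siRNAs target, gave 2 of the 4 calls, so the shares do not describe the other members. For TSA and for the combination the share was near or below that of all probes. With each siCONT pair as 1 sample neither depletion comparison called a member probe. That fit also called far fewer of all probes, so the loss was not particular to the members. Leaving out 1 array lowered the count in some fits under mock, and lowered or raised it under TSA. In UHRF1 depletion under mock, 4 of 15 tested member probes were called (26.7%), of which 2 were of the siRNA target itself, against 4.12% of all tested probes. The members were 1 higher and 3 lower, where 3.13% of all probes were called higher and 0.987% lower. Under TSA, depletion called 4 of 15 against 8.27% (2 higher against 5.39% and 2 lower, both of UHRF1, against 2.87%). For TSA in siCONT the count was 2 of 15 (13.3%), both lower, against 18.6% (10.4% higher and 8.22% lower). For TSA in depleted cells it was 3 of 15, all lower, against 20.7% (11.7% higher and 9.01% lower). The combination called 4 of 15, all lower, against 25.6% (14.5% higher and 11.1% lower). The interaction called 1 of 15, higher, against 4.89% (2.83% higher and 2.07% lower).

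Without the 2-fold minimum, 9 of 15 member probes passed the adjusted p for TSA in siCONT (8 lower, 1 higher), against 40.1% of all tested probes, and 7 of 15 for the combination (6 lower), against 47.3%. The median change of the tested members was -0.57 for TSA in siCONT and -0.51 for the combination, beside -0.11 and -0.14 over all tested probes. For depletion it was -0.09 under mock and -0.30 under TSA, beside -0.10 and 0.0007. Comparisons that share control arrays are not independent of each other, and several probes of 1 gene are not replicates.

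**Figure D3:**
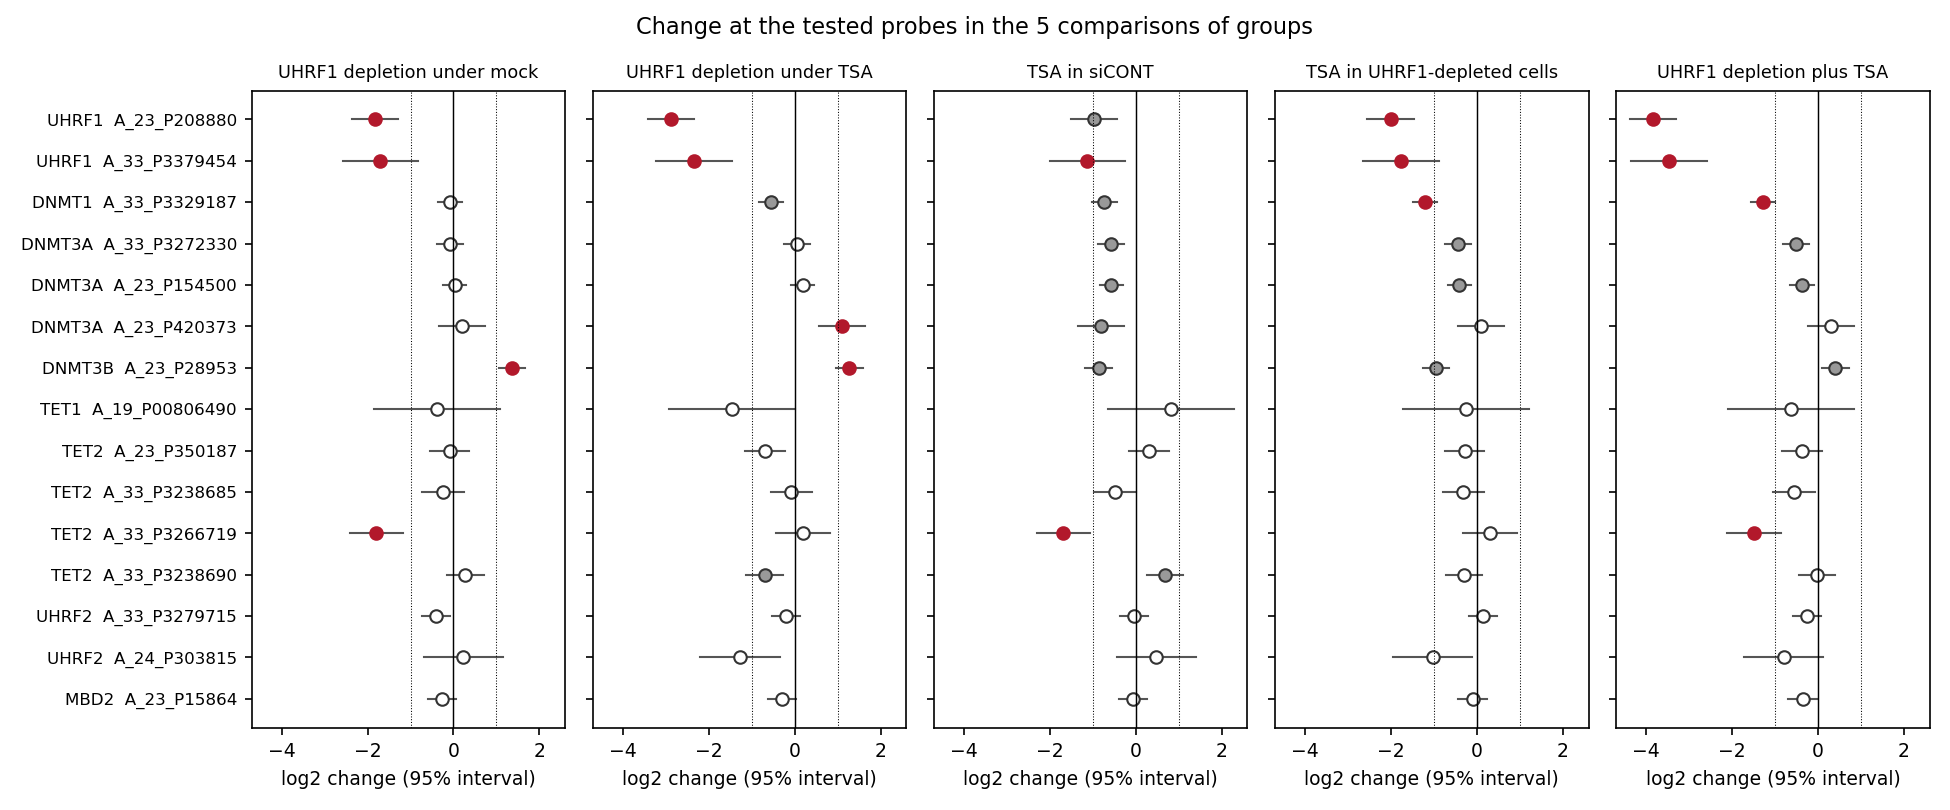
Log2 change with its 95% interval at the 15 tested member probes (rows) in the 5 comparisons of groups (panels). Red points passed both the adjusted p and 2-fold, grey points the adjusted p alone and open points neither, and dotted lines mark 2-fold. UHRF1 is red and lower in 9 of its 10 values, DNMT3B is red and higher in both depletion panels, and DNMT1 is red and lower for TSA in depleted cells and for depletion plus TSA.

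Around the members, 4 of 6 genes that serve maintenance methylation at the replication fork were called lower in depletion plus TSA and 5 of 6 with TSA in depleted cells. The list held PCNA (the sliding clamp), LIG1 (DNA ligase), KIAA0101 (a PCNA-associated factor), HELLS and CDCA7 (a chromatin remodeller and its partner) and USP7 (a deubiquitinase that binds UHRF1 and DNMT1). In depletion under mock 0 of 6 were called (median 0.19), in depletion under TSA 0 of 6 (median -0.66), and in TSA in siCONT 1 was lower, CDCA7, at -1.98 ± 0.13 (limma adjusted p = 0.000459, and 0.0614 with each siCONT pair as 1 sample). In the combination, where the median was -1.24, the 4 called were CDCA7 at -1.72 ± 0.13 (limma adjusted p = 0.000337), LIG1 at -1.58, KIAA0101 at -1.47 and PCNA at -1.02. PCNA lost its call with each siCONT pair as 1 sample (adjusted p = 0.0915) and the other 3 kept it. HELLS (-0.82) and USP7 (0.22) were not called there. With TSA in depleted cells USP7 (-0.28) was the one not called. The share of all probes called lower was the 11.1% and 9.01% given above.

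DNMT3L, a cofactor of the de novo methyltransferases that is usually silent in somatic cells, came above background on both arrays of siUHRF1 TSA. Its levels were -1.68 and -2.02 there, -5.34 and -5.19 in siCONT mock, -4.81 and -5.15 in siCONT TSA, and -3.06 and -5.45 in siUHRF1 mock. It was at least 2.92-fold higher in siUHRF1 TSA than in siCONT mock and at least 3.70-fold higher than in siCONT TSA. These comparisons passed the background filter only through siUHRF1 TSA, where the probe is high, so no p is given for them. The siUHRF1-1 array was the one with a raised level under mock, and the interaction was not called (limma adjusted p = 0.217).

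The partners of the TET enzymes were few and mixed. CXXC4, a CXXC zinc finger protein that binds TET2, read -3.06 and -2.38 in siUHRF1 TSA against -5.38 and -5.40 in siCONT mock. Only the siUHRF1 TSA arrays had CXXC4 well above background, so it passed the filter through that group alone and no p is given. The siUHRF1 TSA level was at least 1.60-fold higher than in siCONT mock, a bound short of 2-fold. CXXC5, a related protein, was lower in the combination, at -1.37 ± 0.13 (limma adjusted p = 0.000692) and with TSA in siCONT, at -1.28 ± 0.13 (limma adjusted p = 0.00150, and 0.119 with each siCONT pair as 1 sample). OGT, a glycosyltransferase that binds TET proteins, was at 0.05 in the combination and was not called.

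The base excision and GADD45 list held 7 genes, which act after TET oxidation or are linked to demethylation. Of these, 2 were called lower in the combination and none higher, against 11.1% of all probes called lower and 14.5% higher. APEX1, the abasic site endonuclease, fell by 1.32 ± 0.14 (limma adjusted p = 0.000963). GADD45B fell by 1.95 ± 0.42 (limma adjusted p = 0.0114, and 0.0898 with each siCONT pair as 1 sample). TDG, the glycosylase that removes the oxidized bases, was at -0.33 and was not called. Under mock, depletion raised 1 of the 7, against 3.13% of all probes called higher. It was the glycosylase NEIL1, by 1.58 ± 0.30 (limma adjusted p = 0.0343, and 0.397 with each siCONT pair as 1 sample). TSA changed NEIL1 by -1.42 ± 0.30 in siCONT (limma adjusted p = 0.0135, and 0.212 with each siCONT pair as 1 sample). In depleted cells TSA changed it by -2.52 ± 0.30 (limma adjusted p = 0.00175, and 0.0118 with each siCONT pair as 1 sample).

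Of the 9 NuRD genes, 3 were lower in the combination, against 11.1% of all probes: MTA2 at -1.17 ± 0.19, RBBP7 at -1.13 ± 0.23 and MTA1 at -1.09 ± 0.12 (limma adjusted p of 0.00381, 0.00937 and 0.00113). None of the 3 held with each siCONT pair as 1 sample (adjusted p of 0.0716, 0.106 and 0.0541). TSA in depleted cells called 2 of the 9 lower, against 9.01% of all probes, MTA1 at -1.05 and RBBP4 at -1.34, and both kept the call with each siCONT pair as 1 sample. In the combination HDAC1 and HDAC2, deacetylases of the class that TSA inhibits, were at -0.24 and -0.45 and were not called.

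Of 18 proliferation genes, 15 were lower and none higher in depletion plus TSA, against 11.1% of all probes called lower, with a median of -1.93, led by CCNB1 (a mitotic cyclin) at -3.38 ± 0.19, TYMS (thymidylate synthase) at -3.35 ± 0.16, CCNA2 at -3.34 ± 0.33 and PLK1 at -2.98 ± 0.23 (limma adjusted p of 0.000153, 0.000107, 0.000672 and 0.000326). E2F1 (-0.32), TK1 (-0.42) and E2F2 (0.58) were not called. Of the 15, 13 were called with each siCONT pair as 1 sample. TSA in siCONT called 8 lower against 8.22% of all probes (median -0.85, and 0 called with each siCONT pair as 1 sample), while TOP2A, RRM2 and E2F1 were at 0.32, 0.12 and 0.25 and not called. Depletion under TSA called 11 lower against 2.87% (median -1.18). These calls too were all lost with each siCONT pair as 1 sample. In both comparisons that fit called far fewer of all probes as well, so the loss was not particular to this list. Under mock, depletion called none of the 18 lower, where 0.987% of all probes were, and 1 higher, E2F2. It rose by 1.56 ± 0.16 (limma adjusted p = 0.0102), a call lost with each siCONT pair as 1 sample. The median was -0.09, but the genes went both ways, from -0.86 at CCNA2 to 1.56 at E2F2. The part of cell number or cell cycle phase in the UHRF1 and DNMT1 levels was not tested, and fewer dividing cells and less RNA per cell cannot be told apart in bulk RNA.

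**Figure D4:**
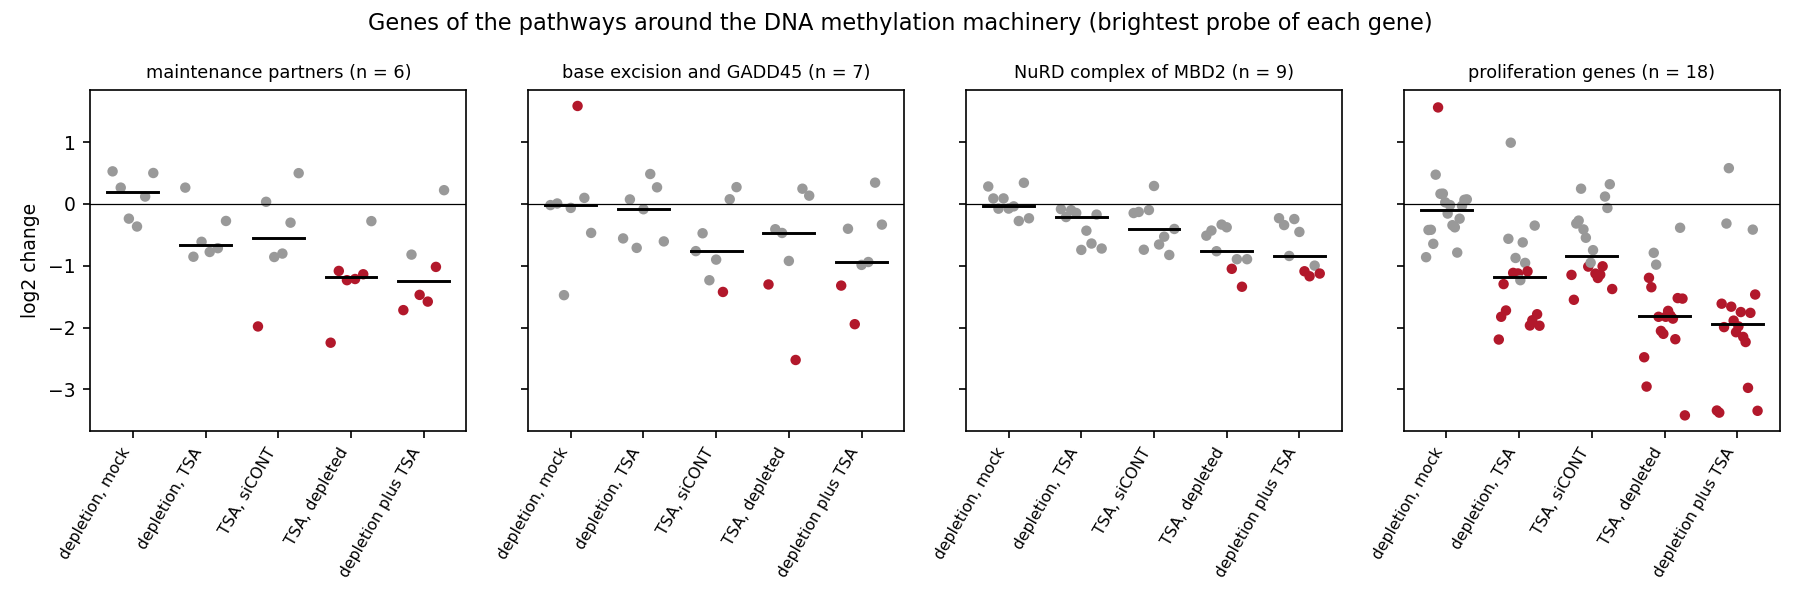
Log2 change of each gene of 4 lists (panels, with the number of genes) in the 5 comparisons of groups, using the brightest probe of a gene. Red points were called, grey points were not, and black lines are list medians. The median of the proliferation genes is -0.09 for depletion under mock, where single genes run from -0.86 (CCNA2) to 1.56 (E2F2). It is lowest for depletion plus TSA (-1.93).

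Genes whose levels ran most like a member over the 8 arrays were found among probes well above background on all arrays that varied at least 0.5 times as much as the member, by the root mean square distance of centred log2 levels. For UHRF1 they included DEPDC1 and POLQ, at distances of 0.388 and 0.451 (Pearson r of 0.970 and 0.981 over 8 arrays). For DNMT1 they were RAI1, HNRNPM and PIEZO1, at 0.0536 to 0.0724 (r of 0.991 to 0.995). For DNMT3B they were SCG5, DEGS2 and E2F2, at 0.182, 0.186 and 0.229 (r of 0.975, 0.984 and 0.959). DNMT3A ran closest to TMEM101, RPL23AP53 and PRELID1, TET2 to ZXDB, BTRC and METTL4, UHRF2 to SFXN5, LBX1 and MON1B, and MBD2 to EIF5B, MGC70870 and SLC4A1AP. These are descriptions, since 8 arrays of 4 groups share their group means and each search ran over 1633 to 16537 probes.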

How the data were processed

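DLD1 RNA was hybridized to 8 Agilent SurePrint G3 Human GE v2 arrays of 1 colour. The deposited files hold linear spot intensity with probe positions on hg19, written by the authors with Agilent Feature Extraction (10.7 per the labels, 10.7.3.1 per the file headers), which subtracts background and does not scale between arrays. GeneSpring GX is named in the methods without its normalization. Here, outlier spots were left out, spots of a probe averaged, and log2 processed intensity taken relative to the 75th percentile of each array over 50599 non-control probes. No spot was saturated, 43.3% to 48.0% of probes were well above background, and that percentile was an intensity of 137 to 189.

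A limma model (version 3.58.1, R 4.3.3) with a mean for each group was fitted to all 8 arrays (lmFit, eBayes, 4 residual and 2.17 prior degrees of freedom), and p-values were adjusted by Benjamini-Hochberg over all tested probes. No source says whether arrays came from separate cultures, so p-values measure the spread between these arrays. Groups came from the labels. The members, gene lists and tests were chosen with earlier results of these data known. Every member probe is named, and its brightest probe leads. In each list the genes called in the combination are named (at most 4), and genes named beyond this were chosen after their values were seen. On data simulated for the fit, 75% of changes of 1.5 and 95% of changes of 3 on the log2 scale were recovered. The simulation used 8 independent arrays, the same spread in every group and only probes well above background on all arrays. The siCONT pairs here lie closer together and some members are dim, so these rates do not describe the power in these data. Alternatives were other scalings, normexp, filters, the methods' t-test, a replicate block, the deposited value table and leaving out each array. Some genes of the lists and searches are not reported here.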

Additional observations from a re-analysis of the deposited data

Results flagged for a closer look

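The probe for transcript variant 2 of TET2 (A_33_P3266719) responded to UHRF1 depletion differently by agent. Depletion changed it by -1.79 under mock and by 0.19 under TSA, and the test of the difference gave 1.99 ± 0.36 on the log2 scale (limma adjusted p = 0.0368, 4.89% of all probes called). The arrays under mock were at 22.4% (siUHRF1-1) and 37.2% (siUHRF1-2) of siCONT, and under TSA at 110.4% and 118.5%. With each siCONT pair taken as 1 sample the adjusted p was 0.435, and with a replicate block 0.0585. No group had 4 arrays, so no outlier test within a group was made.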

How the results depend on the processing

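The members gave 18 calls, and none changed direction in 226 values from alternatives other than leaving out an array, of which 176 kept the call. Only 2 calls held under every alternative run: UHRF1 (A_23_P208880) and DNMT1 in the combination. Counts of member probes called are given here for depletion under mock (main 4), TSA in siCONT (2), the combination (4), depletion under TSA (4), TSA in depleted cells (3) and the interaction (1). With each siCONT pair taken as 1 sample, depletion under mock, TSA in siCONT, depletion under TSA and the interaction each called 0, as that fit has 2 residual degrees of freedom. In these comparisons that fit also called far fewer of all probes than the main fit. Normexp called 1 under mock, 0 for TSA in siCONT and 1 for depletion under TSA, against 1.34%, 7.35% and 3.12% of all tested probes. No filter on dim probes called 2, 1 and 0 for depletion under mock, TSA in siCONT and the interaction. Of all probes it called 0.802% under mock and 8.33% for TSA in siCONT. Fitting only the groups compared called 0 under mock, against 0.272% of all tested probes. The methods' t-test after adjustment called 0 under mock, 0 for depletion under TSA and 0 for TSA in depleted cells. For depletion under mock and under TSA it called 0 of all probes, so the member counts there could only be 0. Without a fold minimum 9 passed for TSA in siCONT, 7 for the combination and 6 for TSA in depleted cells. Of all tested probes 40.1%, 47.3% and 39.3% passed. The detected-probe percentile called 1 for TSA in siCONT, as did the filter to probes above background on all arrays. Of all tested probes they called 18.3% and 14.6%. Median scaling called 5 for TSA in depleted cells and 2 for the interaction, and quantile normalization 2 for the interaction. Median scaling shifted every change by -0.34 to -0.40 wherever siUHRF1 TSA was compared and by -0.01 and -0.05 elsewhere, and the detected-probe percentile by 0.03 to 0.24. Small uncalled changes of UHRF2, DNMT1, DNMT3A, TET2 and MBD2 turned sign under such shifts. Leaving out 1 array gave 0 to 4 calls under mock, 1 to 2 for TSA in siCONT, 4 to 5 for the combination, 2 to 5 for depletion under TSA, 2 to 5 for TSA in depleted cells and 0 to 2 for the interaction.

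Same-numbered siUHRF1 arrays share the siRNA across agents and deviated together (correlation 0.337). Between the other groups the correlations ran from -0.056 to 0.074. The numbers therefore pair the siUHRF1 arrays by siRNA but do not pair the siCONT arrays. The main fit did not use the siRNA pairing. A replicate block called 0 interactions in place of 1 and changed no other call. Probes near background limit what can be read of TET1, TET3 and the dimmer UHRF1 probe. Other causes of these shifts were not tested.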

Other observations

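Of the 3 genes of the S-adenosylmethionine cycle, which supplies the methyl group for all DNA methyltransferases, MAT2A (a subunit of the enzyme that makes S-adenosylmethionine) had group means of 3.66 in siCONT mock, 4.27 in siUHRF1 mock, 4.78 in siCONT TSA and 3.70 in siUHRF1 TSA. TSA raised it by 1.12 ± 0.17 in siCONT (limma adjusted p = 0.00460), depletion lowered it by 1.08 ± 0.17 under TSA (limma adjusted p = 0.0133), and the interaction was -1.69 ± 0.24 (limma adjusted p = 0.0249). With each siCONT pair taken as 1 sample the adjusted p were 0.181, 0.244 and 0.434. MAT2B and AHCY were not called in any comparison.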
